A study of Saccharomyces cerevisiae with 5 samples.

Results

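The genes described here are 10 genes of budding yeast that encode proteases of the vacuole and the Golgi apparatus and the cytosolic inhibitors of the vacuolar enzymes. They are PEP4 (YPL154C), PRB1 (YEL060C), PRC1 (YMR297W), APE1 (YKL103C), CPS1 (YJL172W), PAI3 (YMR174C), PBI2 (YNL015W), TFS1 (YLR178C), KEX1 (YGL203C) and KEX2 (YNL238W). They were found by their systematic names among the 6388 gene probes of the array, each printed as 3 repeat spots. The family was chosen by known function, but it was also selected on the measured values: KEX1 had the lowest ratio of all genes in 1 comparison and PAI3 the second highest in another. The values below are therefore descriptions of these arrays.

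The study used 5 arrays, each hybridised with material of 2 strains that had been labelled in different dyes, Cy5 and Cy3. Every culture had 0.5 mol/L NaCl for 45 min before its RNA was taken, per the labels, so no unstressed culture is among the samples. The strain bdf1Δ, which lacks BDF1, a bromodomain gene of the transcription machinery, was compared with the laboratory strain W303 on 1 array. The strain bdf1Δ+HAL2, in which the series title says that the salt-sensitive phosphatase gene HAL2 is overexpressed, and the strain bdf1Δhda1Δ, which also lacks the histone deacetylase gene HDA1, were each compared with bdf1Δ on 2 arrays with exchanged dyes. All strains but W303 thus carry the deletion of BDF1, and all 3 comparisons contain bdf1Δ. The labels give neither the promoter nor the vector of HAL2, and they do not say how many clones of a strain were grown.

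Per the labels, each test and control sample was hybridised on both exchanged arrays, so each strain was taken to have 1 sample in a comparison and no p-value was computed. The labels do not speak of separate cultures. Errors are the SD of the 2 arrays of a pair (n = 2) or, for bdf1Δ versus W303, of the 3 repeat spots (n = 3), and on that reading they hold technical variation alone. A ratio is given as log2 of test strain over reference strain after global loess, which sets the typical gene of each array to 0. A gene is said to rise or fall when every array of its comparison put it past 2-fold the same way, as the labels' own rule asks.

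Yeast degrades and recycles protein in the vacuole. Proteinase A, encoded by PEP4, starts a cascade in which the precursors of proteinase B (PRB1), carboxypeptidase Y (PRC1), aminopeptidase I (APE1) and carboxypeptidase S (CPS1) are cut to their active forms. Small cytosolic proteins bind and block individual enzymes: Pai3 blocks proteinase A, Pbi2 blocks proteinase B and Tfs1 blocks carboxypeptidase Y. In the late Golgi the endoprotease Kex2 cuts secreted precursors such as α-factor and killer toxin after pairs of basic residues, and the carboxypeptidase Kex1 then trims those residues.

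The labels were checked on the altered genes. BDF1 had a net intensity, the spot minus its local background, of 12.0 in bdf1Δ and 530.5 in W303, and 0 of its spots exceeded background in any channel of a strain that lacks it. Its ratio was −0.80 ± 0.21, within 2-fold, and HAL2, which neither strain has altered, gave a like contrast there, at 18.0 against 576.7 and −0.82 ± 0.18. That array therefore does not single out the deleted gene. HAL2 rose by 3.73 ± 0.15 in bdf1Δ+HAL2. HDA1 exceeded background in 0 spots of bdf1Δhda1Δ, and in bdf1Δ in 0 of 3 spots on array 1 and 2 of 3 on array 2. Array 1 of that pair thus checks nothing, and no ratio of HDA1 was measured. The array of bdf1Δ versus W303 stood apart from the other 4. Of its gene spots, 36.9% exceeded background in the bdf1Δ channel and 91.2% in the W303 channel. The share of variance lying between its 48 printing blocks was 35.8%, against 3.18% to 10.7% on the others. Its 144 spots of ACT1 had an SD of 1.46, against 0.08 to 0.16. Values of that comparison are therefore also given after print-tip loess, which normalizes each block of the slide on its own. The part of slide position in any single ratio was not tested.

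Of the 10 genes, 9 were measured in each comparison, with all 3 spots used on every array. KEX2 was measured in none, because the image software had found 3 of its 15 spots, all on array 1 of the bdf1Δ+HAL2 pair. On that array its ratio was 0.13 ± 0.10 (SD of 3 spots), and its net intensity over all channels ran from 11.0 to 1017 per spot. No spot of the family was saturated.

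In bdf1Δ against W303 all 3 inhibitor genes rose. PAI3 led with a 9.72-fold ratio, followed by TFS1 at 4.68-fold and PBI2 at 4.11-fold. The 3 genes rose under print-tip loess as well, and their net intensity was higher in bdf1Δ than in W303 at every spot before any normalization. The protease genes lay between −1.43 and 1.01, and 2 of them passed 2-fold, in opposite directions and by global loess only. Counted together, 4 of the 9 measured genes were called higher and 1 lower. The same rule called 15.9% of all 3688 measured genes higher and 18.4% lower, so calls were common on this array. By print-tip loess 3 of the 9 were higher and 0 lower, against backgrounds of 5.94% and 6.18%. The median of the 9 ratios was 0.90, or 0.63 by print-tip loess, and that of all genes was −0.00 and −0.01. Because the genes were selected on this contrast, nothing is read from these shares.

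PAI3, the inhibitor of proteinase A, gave net intensities of 5501, 4391 and 5415.5 in the bdf1Δ channel and of 861, 916 and 995.5 in the W303 channel at the same 3 spots. The lowest bdf1Δ spot was thus above the highest W303 spot, though the share of all genes with such a gap was not counted. Its ratios at those spots were 3.49, 3.11 and 3.25, with a mean of 3.28 ± 0.19, and 3.06 ± 0.19 by print-tip loess. By either normalization it had the second highest ratio of the 3688 genes. The largest ratio by global loess was 3.33, of the spore wall gene SPS100.

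TFS1, the inhibitor of carboxypeptidase Y, had net intensities of 4478.5, 6123 and 7283.5 in bdf1Δ and of 2054, 1986 and 2148 in W303. Here too the strains did not overlap, and the share of all genes without overlap on this array was not counted. The ratio was 2.23 ± 0.29 (1.74 ± 0.29 by print-tip loess), rank 23 from the highest. PBI2, the inhibitor of proteinase B, had 1146, 1590 and 1957.5 in bdf1Δ against 813, 784 and 801.5 in W303. Its repeats differed more in the bdf1Δ channel than in the W303 channel, yet none reached down to the W303 values. The ratio was 2.04 ± 0.33 (2.53 ± 0.41 by print-tip loess), rank 43 by the first method and rank 10 by the second. When the 5 arrays were scaled to a common spread, PAI3 stayed past 2-fold at 1.39, while TFS1 (0.94) and PBI2 (0.86) did not. In the authors' deposited table, which is not centred for this array, the ratios were 6.39-fold for PAI3, 2.18-fold for TFS1 and 1.41-fold for PBI2.

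**Figure D1:**
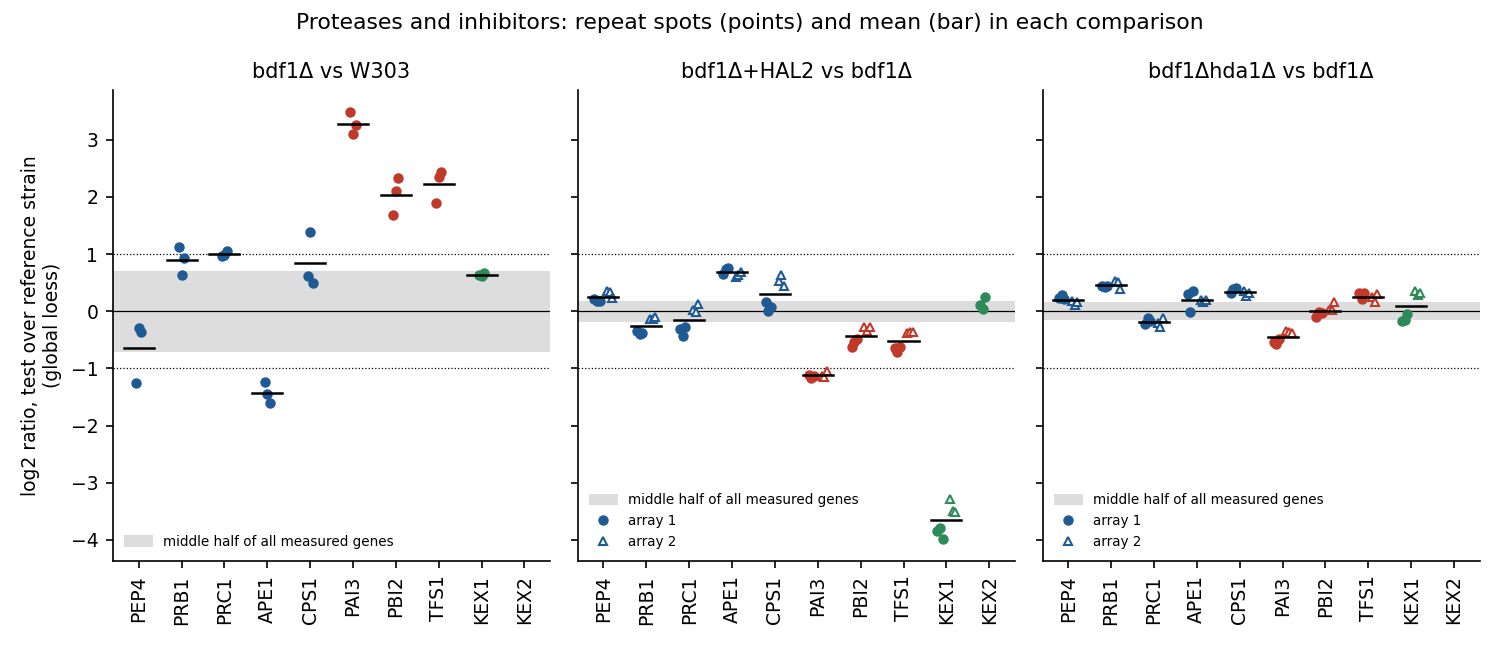
Log2 ratio of the test over the reference strain after global loess for the 10 genes in the 3 comparisons. Points are repeat spots (circles array 1, triangles array 2), bars are means, blue marks vacuolar proteases, red inhibitors and green Golgi proteases, the grey band spans the quartiles of all measured genes and dotted lines mark 2-fold. The 3 inhibitor genes lie above 1.6 in bdf1Δ versus W303, and KEX1 lies at −3.28 or lower in bdf1Δ+HAL2 versus bdf1Δ.

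Before normalization most genes of that array were brighter in the W303 channel, and the median log2 ratio before normalization was −1.84. A gene with every used spot brighter in the bdf1Δ channel was uncommon, at 117 of 3688 genes or 3.17%. PAI3, TFS1, PBI2 and PRC1 were among them, 4 of the 9 measured members, on the contrast by which the family was chosen. The dyes were not exchanged on this array, so a difference between dyes cannot be told apart from one between the strains.

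By global loess the vacuolar proteases had ratios of both signs in bdf1Δ. By print-tip loess all 5 were above 0 and within 2-fold, from 0.10 to 0.64. PRC1, which encodes carboxypeptidase Y, had net intensities of 2041, 2025 and 2188.5 in bdf1Δ and of 1966, 1930 and 1963 in W303. The 2 strains were close before normalization, with bdf1Δ the brighter at each spot. The ratio of 1.01 ± 0.05 lay just inside the 2-fold rule, and it was 0.34 ± 0.05 by print-tip loess, which ended the call. PRB1, the gene of proteinase B, lay just outside the rule at 0.90 ± 0.24 (0.64 ± 0.43), with spots at 1.12, 0.64 and 0.94. CPS1, the gene of carboxypeptidase S, stood at 0.84 ± 0.49 (0.10 ± 0.66). Its spots ranged from 0.50 to 1.40, so the repeats of CPS1 spread more than those of any other member but PEP4.

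PEP4, the gene at the head of the cascade, had spots at −1.26, −0.30 and −0.37 and a mean of −0.64 ± 0.54. By print-tip loess the same spots lay at 0.11, 0.96 and 0.81, so the sign of its ratio depended on the normalization. APE1, which encodes aminopeptidase I, was the 1 protease called lower, at −1.43 ± 0.19. In bdf1Δ 0 of its 3 spots exceeded background, with net intensities of 88.0, 71.0 and 45.5 against 1137.5, 1180 and 1103 in W303. By print-tip loess its mean was 0.34 ± 0.35, which reversed the direction, so no lower limit of a fold is given. On the other 4 arrays bdf1Δ gave APE1 spots above background each time, 12 of 12. KEX1 lay within 2-fold at 0.64 ± 0.03 (0.15 ± 0.04 by print-tip loess), and in bdf1Δ 1 of its 3 spots exceeded background.

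**Figure D2:**
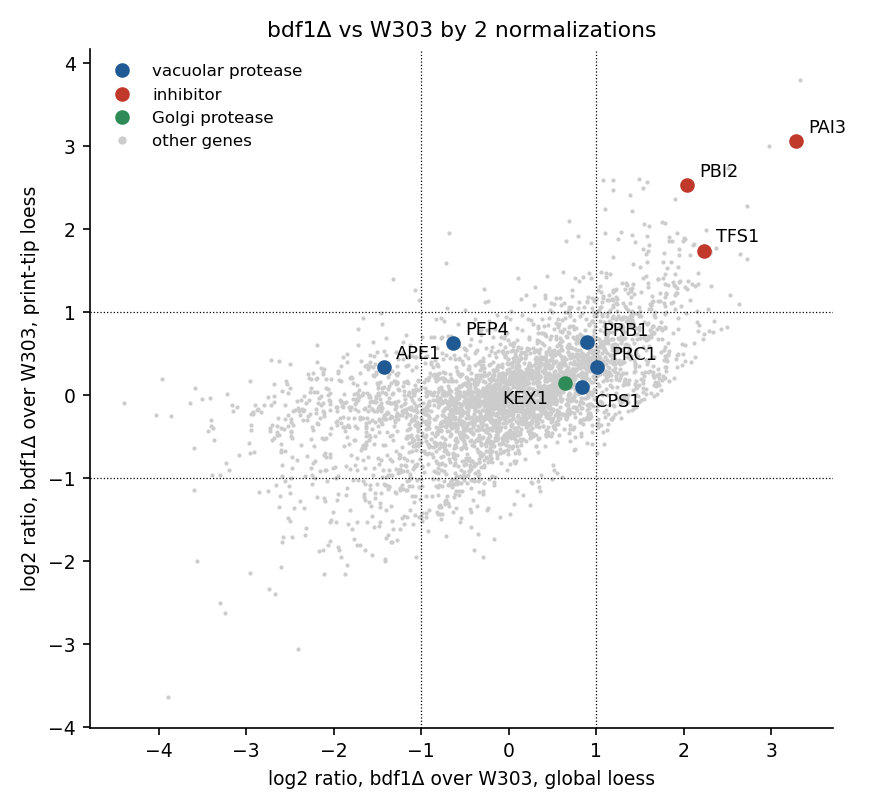
Log2 ratio of bdf1Δ over W303 by global loess (x axis) and by print-tip loess (y axis), with 1 point per gene for 3688 genes and the 9 measured members in colour. PAI3, TFS1 and PBI2 lie past 2-fold on both axes, whereas PRC1 and APE1 pass 2-fold on the x axis only and PEP4 and APE1 change sign.

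In bdf1Δ+HAL2 against bdf1Δ, KEX1 fell the furthest of all 4266 measured genes, and PAI3 fell too. The other 7 measured members lay within 2-fold. The rule called 0 of the 9 higher and 2 lower, where it called 0.445% of all genes higher and 1.03% lower. Since KEX1 was selected on this contrast, nothing is read from that difference. The members' median was −0.25, and that of all genes was 0.00.

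KEX1, the carboxypeptidase gene, gave spots of 266, 310 and 334 in bdf1Δ+HAL2 and of 4020.0, 4388 and 5397 in bdf1Δ on array 1. With the dyes exchanged it gave 226.5, 166 and 158 against 3804, 3624 and 3592. The strains were thus far apart on both arrays, and the bdf1Δ+HAL2 signal was 6.59% and 5.0% of the bdf1Δ signal. The ratios were −3.88 ± 0.10 and −3.43 ± 0.13 (SD of 3 spots), with a mean of −3.65 ± 0.31. The bdf1Δ+HAL2 strain exceeded background at 3 spots on array 1 and at 0 on array 2. Array 2 therefore gives a limit in place of a fold, at least 8.9-fold lower, with the dim spots taken at no less than the faintest level that exceeded background there. That level is taken over the whole array and not from the background at KEX1, so the limit is approximate. Averaged over both arrays the same rule gave at least 11.4-fold. This joins 14.7-fold on array 1, where the dim spots exceeded background, with the limit of array 2. Without background subtraction the mean ratio was −3.37. The next lowest gene was SHH3, related to a membrane subunit of succinate dehydrogenase, at −2.55. The authors' deposited table gave KEX1 ratios of 0.0627 and 0.0639 on the 2 arrays. Across the 12 alternative settings KEX1 passed 2-fold in each, at −5.42 at the lowest. Some of these settings could not move its value, because all its spots were used in any case.

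The genes beside KEX1 on its chromosome did not follow it. ARO8, an aromatic aminotransferase gene, lay at 0.03 ± 0.18 and MCM6, a replicative helicase gene, at 0.25 ± 0.29. The 2 genes on the other side, POX1 and YGL204C, were not measured. The other enzyme of the Golgi pair, KEX2, has only the ratio near 0 on array 1 given above.

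**Figure D3:**
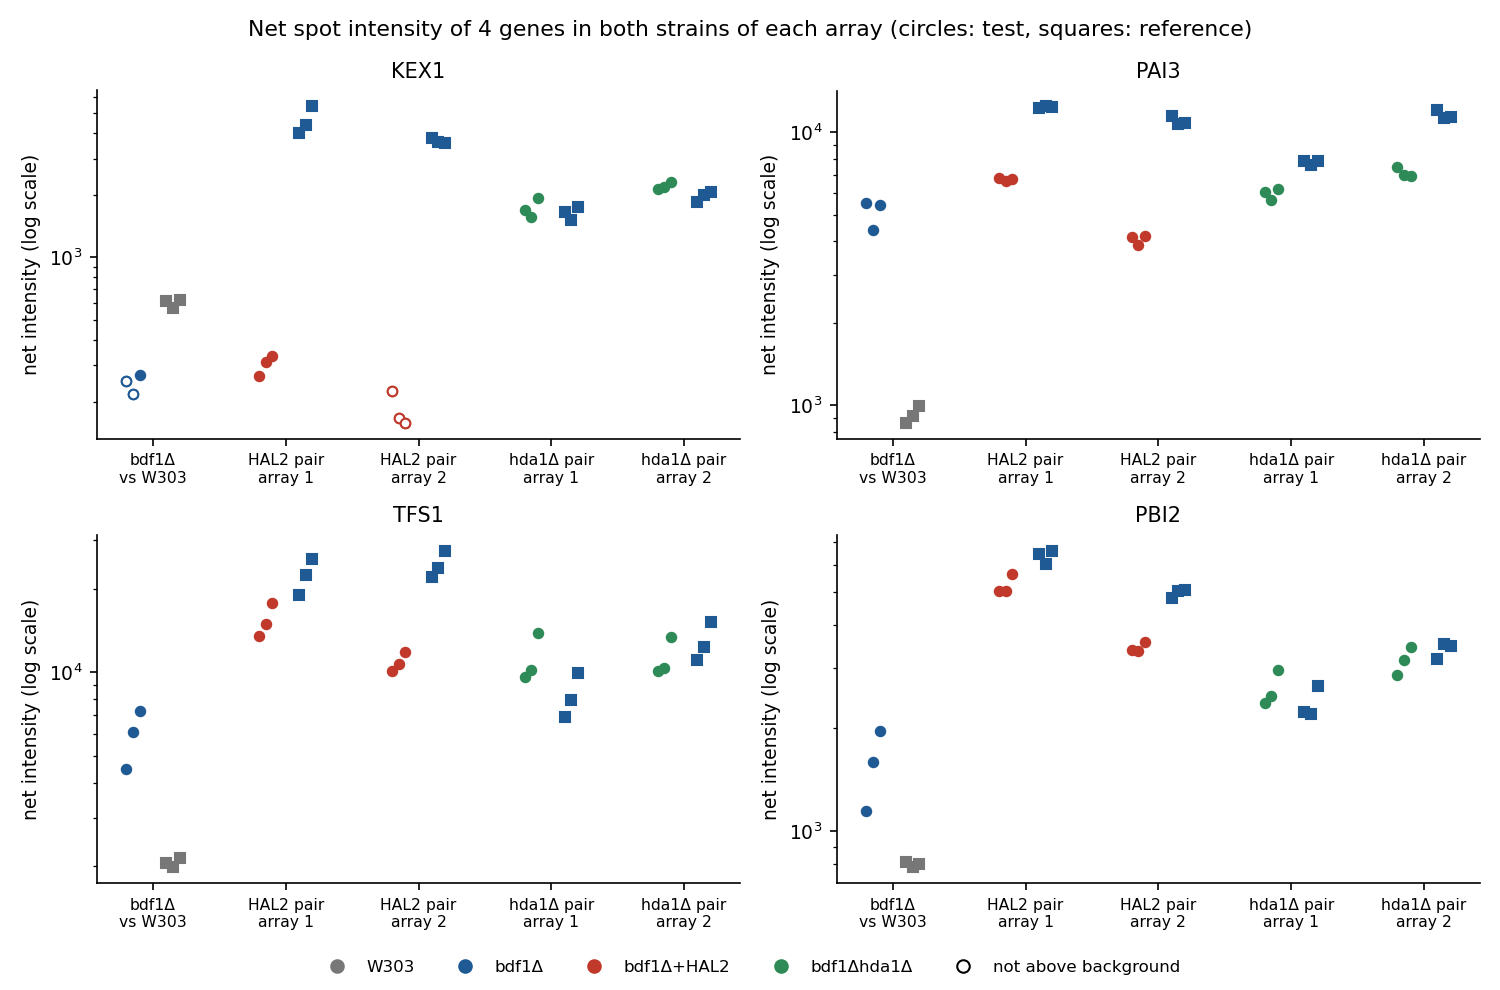
Net spot intensity (spot minus local background, log axis) of KEX1, PAI3, TFS1 and PBI2 on each array, with circles for the test strain, squares for the reference strain and open symbols for spots not above background. Intensities are not normalized and are to be compared within an array only. KEX1 in bdf1Δ+HAL2 lies between 158 and 334 while bdf1Δ lies between 3592 and 5397 on the same arrays.

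All 3 inhibitor genes had negative ratios in bdf1Δ+HAL2, and PAI3 alone fell past 2-fold. PAI3 gave 6796, 6633 and 6754.5 in bdf1Δ+HAL2 against 12309, 12461 and 12389 in bdf1Δ on array 1. On array 2 it gave 4138, 3869 and 4167 against 11464, 10766 and 10816. The strains did not overlap on either array, though net intensities are not normalized. The share of all genes without overlap was not counted, and PEP4, of positive ratio, also had bdf1Δ the brighter at every spot of array 2. The ratios were −1.14 and −1.10, with a mean of −1.12 ± 0.03, or 2.18-fold lower, rank 43 from the lowest of 4266 genes. Across the 12 alternatives, some of which could not move its value, it ranged from −1.66 to −1.10 and stayed past 2-fold. TFS1 had −0.66 and −0.37 on the 2 arrays, with a mean of −0.52 ± 0.20. PBI2 had −0.55 and −0.30, with a mean of −0.42 ± 0.18. Both were negative on each array by more than the spread of their repeat spots, though within 2-fold. By print-tip loess the TFS1 ratio on array 2 was −0.04, inside the spread of its spots there.

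Among the vacuolar proteases none passed 2-fold in bdf1Δ+HAL2. APE1 had the highest ratio of the family, at 0.72 and 0.64 with a mean of 0.68 ± 0.05, rank 101 from the highest of 4266 genes. Its net intensities, which are not normalized, were 7371, 6833 and 7137.5 in bdf1Δ+HAL2 against 3827, 3357.5 and 3475 in bdf1Δ on array 1. PEP4 stood at 0.25 ± 0.08, with 0.19 and 0.31 on the 2 arrays. CPS1 had 0.08 and 0.53, so its mean of 0.31 ± 0.32 was no larger than the difference between its arrays. By print-tip loess its arrays lay closer, at 0.40 and 0.52 with a mean of 0.46 ± 0.08. PRB1 had −0.38 and −0.12, with a mean of −0.25 ± 0.18. PRC1 had −0.34 on array 1 and 0.04 on array 2, so its sign differed between the arrays.

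**Figure D4:**
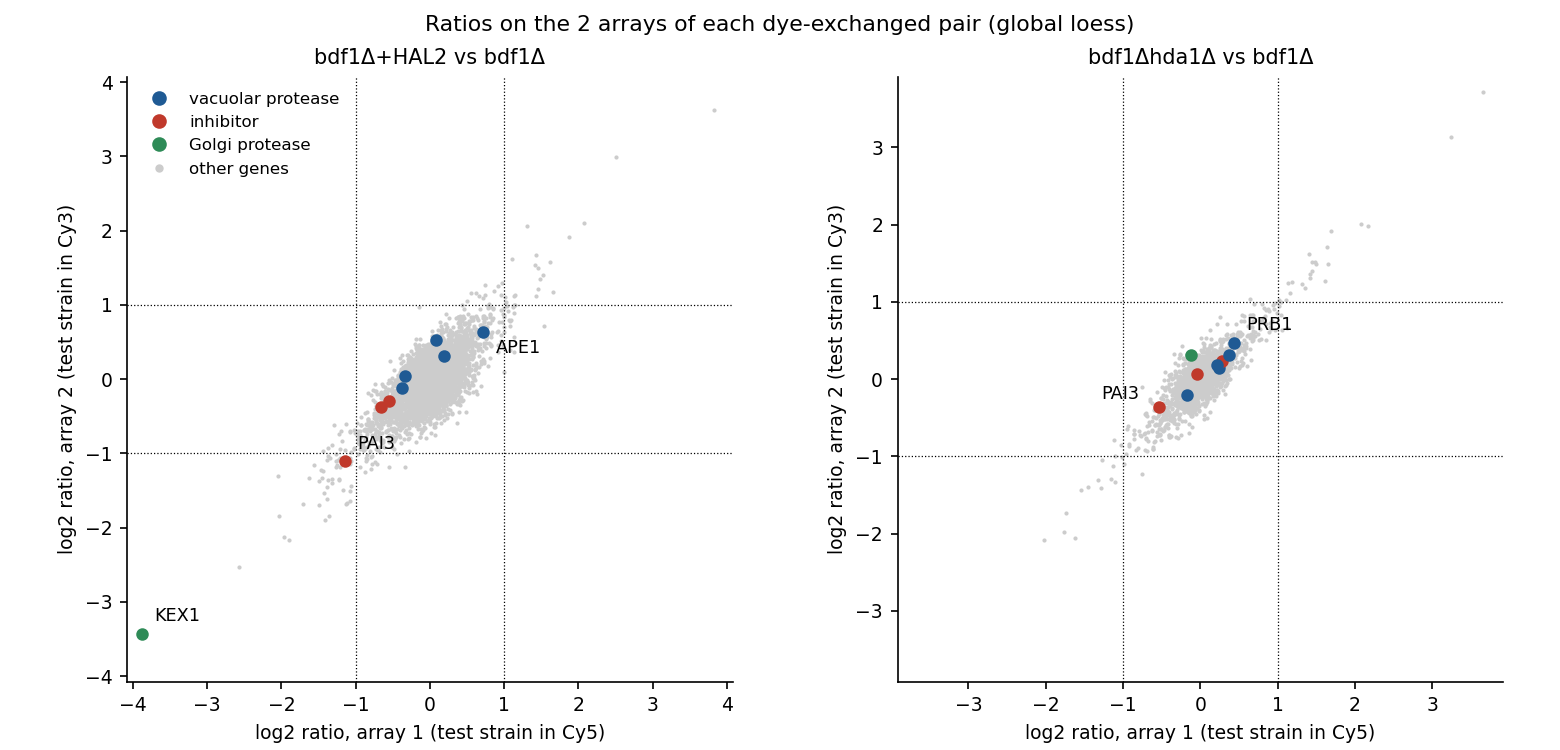
Log2 ratio on array 2 (y axis) against array 1 (x axis) of each dye-exchanged pair after global loess, with 1 point per gene and the 9 measured members in colour; dotted lines mark 2-fold. KEX1 lies at the lower left end of all genes in bdf1Δ+HAL2 versus bdf1Δ, PAI3 lies just past both lower lines there, and all 9 lie within the lines in bdf1Δhda1Δ versus bdf1Δ.

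In bdf1Δhda1Δ against bdf1Δ 0 of the 9 measured genes passed 2-fold in either direction. The rule called 1.06% of 2074 genes higher and 0.627% lower, so few calls were made at all. The members' ratios ran from −0.45 to 0.46, with a median of 0.20. PRB1 was the highest, at 0.44 and 0.47 with a mean of 0.46 ± 0.03 (0.26 ± 0.03 by print-tip loess). CPS1 followed at 0.34 ± 0.04 (0.215 ± 0.004) and TFS1 at 0.26 ± 0.03 (0.24 ± 0.01). APE1 and PEP4 both stood at 0.20, with SDs of 0.02 and 0.07. PRC1 had a small negative ratio on both arrays, with a mean of −0.18 ± 0.02, although print-tip loess placed it at −0.04 ± 0.00.

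PAI3 was the lowest of the family in bdf1Δhda1Δ, at −0.53 and −0.36 with a mean of −0.45 ± 0.12. Its net intensities were 6035, 5634 and 6203 in bdf1Δhda1Δ against 7864, 7606 and 7828.5 in bdf1Δ on array 1. The strains did not overlap on array 2 either, but there PEP4, of positive ratio, also had bdf1Δ the brighter at every spot. Net intensities are not normalized, and the share of all genes without overlap was not counted. PBI2 lay at 0.01 ± 0.08. KEX1 had −0.13 and 0.32 on the 2 arrays, with a mean of 0.10 ± 0.31, so its sign differed between them. Its net intensity was 1742.7 in bdf1Δhda1Δ and 1640.2 in bdf1Δ on array 1. Relative to bdf1Δ, then, KEX1 had no ratio beyond the spread of the arrays in bdf1Δhda1Δ, and a ratio of −3.65 in bdf1Δ+HAL2.

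Each inhibitor was also set against its own protease as the difference of their log2 ratios, which a common shift of an array leaves unchanged. The genes of each pair lie in different printing blocks, so differences between blocks do not cancel. PAI3 minus PEP4 was 3.92 ± 0.57 in bdf1Δ versus W303 and 2.43 ± 0.49 by print-tip loess. The same difference was −1.37 ± 0.06 in bdf1Δ+HAL2, from −1.33 and −1.41 on the 2 arrays, and −0.64 ± 0.19 in bdf1Δhda1Δ. The ratio of the inhibitor gene was thus above that of its protease gene in the first comparison and below it on all 4 arrays of the others. These are ratios between strains, and the levels of the genes were not compared. PBI2 minus PRB1 was 1.14 ± 0.41 (1.89 ± 0.59 by print-tip loess), then −0.17 ± 0.00 (−0.125 ± 0.004) and −0.45 ± 0.05 (−0.14 ± 0.00). TFS1 minus PRC1 was 1.22 ± 0.29 (1.40 ± 0.30), then −0.37 ± 0.07 (−0.24 ± 0.27) and 0.44 ± 0.01 (0.28 ± 0.01). For PAI3 minus PEP4 the last 2 comparisons gave −1.63 ± 0.03 and −0.65 ± 0.11 by print-tip loess. The SDs thus leave out the choice of normalization. The 3 comparisons share bdf1Δ, as the reference in the last 2 and as the test strain in the first, so opposite signs between them are not independent of each other.

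**Figure D5:**
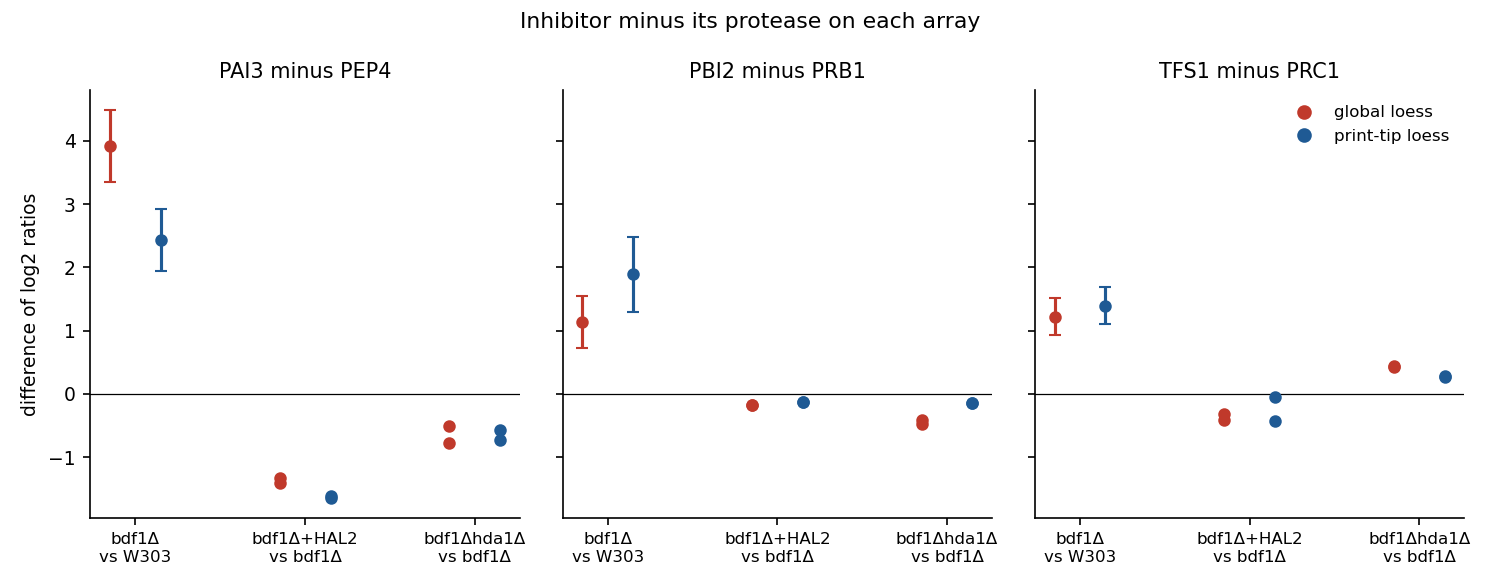
Difference of log2 ratios, inhibitor minus its protease, for the 3 pairs in each comparison by global loess (red) and print-tip loess (blue). Points are arrays, and bars on the single array are the SD of the difference from 3 repeat spots per gene. All 3 differences are above 1 in bdf1Δ versus W303, and TFS1 minus PRC1 is the 1 difference above 0 in bdf1Δhda1Δ versus bdf1Δ.

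The genes whose values over the 5 arrays lay nearest to those of PAI3, by Euclidean distance among 1929 genes measured on all arrays, were SPS100 (distance 1.05), GAD1, glutamate decarboxylase (1.15), and YOR121C (1.26). GAD1 had ratios of 2.73, −0.44 and −0.32 in the 3 comparisons, where PAI3 had 3.28, −1.12 and −0.45. The genes nearest to KEX1 lay farther off. They were SIP18 (3.35), a salt-induced hydrophilin gene, DAD3 (3.37), a gene of the kinetochore, and TSA2 (3.47), a peroxiredoxin gene.

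On the chromosome SIP18 is also the gene next to PAI3. It fell with PAI3 in bdf1Δ+HAL2, at −1.70 ± 0.02, but stood at −1.09 ± 0.37 in bdf1Δ versus W303, where PAI3 rose. DDR48, on the other side of PAI3, had −2.03 ± 0.11 in bdf1Δ versus W303 and 0.30 ± 0.55 in bdf1Δ+HAL2. By print-tip loess SIP18 and DDR48 lay within 2-fold in bdf1Δ versus W303, at −0.61 and −0.40. Beside TFS1, which rose in bdf1Δ, lay YLR179C at −1.78 ± 0.18 (−0.05 by print-tip loess) and SAM1, S-adenosylmethionine synthetase, which fell by either method (−1.66 ± 0.35 and −1.19). Beside PRC1, LIP1, a subunit of ceramide synthase, stood at 1.70 ± 0.11 and at 0.01 by print-tip loess. Over the called members, 12 of 20 such genes were measured in bdf1Δ versus W303, with 1 higher and 4 lower where 15.9% and 18.4% of all genes were called. In bdf1Δ+HAL2 5 of 8 were measured, with 1 lower (SIP18) where 1.03% of all genes were. Counts this small are read no further.

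Other genes of these pathways were read from lists of vacuolar hydrolases and further secretory proteases, of sorting to the vacuole, and of mating pheromone precursors and their processing. In bdf1Δ+HAL2 and in bdf1Δhda1Δ 0 measured genes of any list passed 2-fold, among 14, 21 and 6 measured in the first and 10, 8 and 3 in the second. The medians were −0.08, 0.02 and −0.34 in bdf1Δ+HAL2 and 0.11, 0.04 and −0.14 in bdf1Δhda1Δ. Over all genes 0.445% and 1.03% were called in the first and 1.06% and 0.627% in the second, so counts of 0 in lists of this size are near the background.

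In bdf1Δ versus W303, 5 of 14 measured hydrolase and protease genes were called higher and 2 lower by global loess, with a list median of −0.35, and 0 by print-tip loess, with a median of 0.09. Over all genes the shares were 15.9% higher and 18.4% lower by global loess, and 5.94% and 6.18% by print-tip loess. Those higher were BAR1 (1.65 ± 0.33), which encodes the protease that degrades α-factor, YPS1 (1.63 ± 0.02), a cell surface aspartic protease gene, STE13 (1.31 ± 0.01), a dipeptidyl aminopeptidase of α-factor maturation, APE4 (1.31 ± 0.36), an aminopeptidase gene, and RNY1 (1.04 ± 0.45), a vacuolar ribonuclease gene. Those lower were PHO8 (−1.87 ± 0.03), the vacuolar alkaline phosphatase, and YPS3 (−1.69 ± 0.05), a relative of YPS1. Of the sorting genes VPS4 (1.69 ± 0.22) and VPS45 (1.29 ± 0.21) were called higher among 16 measured, and neither by print-tip loess (0.24 and −0.04). By that method PEP8, a retromer gene, was the 1 sorting gene called, at −1.01 against −0.33 by global loess. The list medians were 0.06 and −0.07 by the 2 methods. None of these calls was thus made by both methods.

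Of the pheromone genes 4 of 7 measured were called higher in bdf1Δ, namely STE6, the exporter of a-factor (1.83 ± 0.04), MFA1 (1.43 ± 0.86) and MFA2 (1.08 ± 0.33), which encode the a-factor precursor, and STE13. The background of higher calls was 15.9%, or 5.94% by print-tip loess, by which 2 of the 7 were called. These 2 were MFA1 and MFA2, at 1.22 and 2.59. The list median was 1.08, or 0.12 by print-tip loess. The labels do not state the mating type. Of 7 genes expressed in cells of mating type a, STE2, MFA2 and STE6 exceeded background in 10 of 10 channels, AGA2 in 9, MFA1 in 8, BAR1 in 7 and ASG7 in 3. MF(ALPHA)1, the main α-factor gene and a substrate of both Golgi enzymes, did so in 0, STE3 in 1, MF(ALPHA)2 in 3 and SAG1 in 7. Of these 4 genes of mating type alpha, SAG1 was measured in bdf1Δ versus W303, within 2-fold at 0.93 ± 0.04. The list of mating type a genes had medians of 1.26 in bdf1Δ versus W303 (0.72 by print-tip loess), −0.75 in bdf1Δ+HAL2 and −0.40 in bdf1Δhda1Δ, over 6, 6 and 3 measured genes, and of these 4 were called, BAR1, MFA1, MFA2 and STE6 in the first. Whether that has a part in the ratio of KEX1 was not tested.

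Over all genes, the counts behind the shares above were 587 higher and 679 lower in bdf1Δ versus W303, 19 and 44 in bdf1Δ+HAL2, and 22 and 13 in bdf1Δhda1Δ. Scaling the arrays to a common spread gave 12 and 116 in the first, so the balance of higher and lower calls there depended on the scaling.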

How the data were processed

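Total RNA was amplified and labelled with Cy5 or Cy3, per the labels' protocols. The deposited scanner files hold spot and background intensity for both channels, per the file headers. A further deposited table gives the authors' own ratio for each probe and array. Set against the scanner values, each of its columns ran as test over reference strain (Pearson r from 0.741 to 0.938 across genes). Its medians were 0.195 for bdf1Δ versus W303 and 0.992 to 1.04 elsewhere, and how it was centred is unknown. The table served as an alternative. The sources used here name no image software, scanner setting or genome build.

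Background medians were removed from spot medians by normexp (offset 50), and global loess was run within each array, with control and unfound spots at weight 0 (limma 3.58.1, R 4.3.3). Signs were turned where the test strain was in Cy3. Spots entered if flagged as found and if 1 channel or more exceeded background by 2 background SDs, and a gene was measured with at least 2 of 3 spots used on every array. Saturated spots were kept. The at-least folds of KEX1 used channel levels after loess and Aquantile scaling, by global loess (11.4 over both arrays) and print-tip loess (12.0), and the smaller is given. The pipeline was tested on simulated arrays, which had a smooth dye bias but no differences between printing blocks. That test therefore does not bear on the block differences of the bdf1Δ versus W303 array. Tables and plots were made with pandas 2.3.3, NumPy 2.4.6 and matplotlib 3.10.9 under Python 3.11.15. The image software had found between 32.9% and 72.9% of the 19164 gene spots per array, and the number of arrays limits the precision.

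Probes were named through the RefSeq R64 gene table, where 5849 of 6388 gene probes and all 10 members matched a locus tag. That table also gave the order of neighbouring genes. The members and lists were chosen with earlier results of these data known. The text names the 10 members, the list genes past 2-fold on each array, the 3 genes nearest to KEX1 and to PAI3, the 2 genes on either side of a called member where they are described, and the altered genes. SHH3 was named after its value was seen. No sequences were used here.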

Additional observations from a re-analysis of the deposited data

Results flagged for a closer look

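PRB1 and TFS1 had opposite signs in the 2 strains compared with bdf1Δ, on both arrays of each pair. PRB1, the gene of proteinase B, had −0.25 ± 0.18 in bdf1Δ+HAL2 and 0.46 ± 0.03 in bdf1Δhda1Δ, a difference of −0.71. TFS1, the carboxypeptidase Y inhibitor, had −0.52 ± 0.20 and 0.26 ± 0.03, a difference of −0.77. All 8 ratios lay within 2-fold. By print-tip loess PRB1 had −0.19 ± 0.10 and 0.26 ± 0.03, and TFS1 had −0.29 ± 0.36 and 0.24 ± 0.01. The TFS1 ratio on array 2 of the bdf1Δ+HAL2 pair was then −0.04, inside the spread of its spots. The differences were not tested, and both comparisons have bdf1Δ as the reference.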

How the results depend on the processing

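The number of members past 2-fold was 2 in bdf1Δ+HAL2 (KEX1 and PAI3) and 0 in bdf1Δhda1Δ under each of 12 alternatives, and single arrays gave the same counts (2 to 2 and 0 to 0). In bdf1Δ versus W303 the count of 5 became 3 by print-tip loess, 1 by scale normalization (PAI3) and 8 with the authors' ratio centred on its median. It was 7 by median centring and 4 without background subtraction. With the uncentred authors' ratio it was 6, of which 2 were higher and 4 lower. APE1 reversed to 0.34 by print-tip loess. The causes were not tested. PAI3 stayed past 2-fold in all 9 alternatives there (1.39 to 5.04), TFS1 in 8 (0.94 to 3.48), PBI2 in 7 (0.50 to 2.85), APE1 in 7 (−3.69 to 0.34) and PRC1 in 5 (0.05 to 2.41). Some alternatives changed only which spots were used, and the 9 measured members kept their main values there because all their spots were used. Calling by the mean of the arrays also left the values as they were. These settings could not move a value, yet the tallies here count them, so they add nothing on stability. Of 297 member values under alternatives, these settings included, 218 moved by less than 1 SD. The sign differed from the main value in 12, of which 7 were in bdf1Δ versus W303, and in 1 of the 12 (APE1) the main value was past 2-fold. PEP4 turned to 0.63 by print-tip loess and 0.33 by median centring, and in bdf1Δ+HAL2 to −0.11 by median centring. With the uncentred authors' ratio PEP4 (−2.29), APE1 (−3.69), KEX1 (−1.28) and CPS1 (−1.003) were called lower in bdf1Δ versus W303. The median of all genes by that ratio was −2.37.

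Over all genes the higher and lower calls in bdf1Δ versus W303 were 587 and 679, against 219 and 228 by print-tip loess, 12 and 116 by scale normalization, 31 and 2873 with the authors' ratio (median −2.37), 1048 and 1137 with it centred, and 1247 and 682 with unfound spots (median 0.48). In bdf1Δ+HAL2 they were 19 and 44, against 71 and 122 by scale normalization, 30 and 53 by the mean of the arrays, and 35 and 60 or 36 and 70 on single arrays. In bdf1Δhda1Δ 22 and 13 became 31 and 16 or 27 and 17 on single arrays, 30 and 13 with unfound spots, and 25 and 20 with the centred authors' ratio.

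No paired analysis was possible because the shared numbers mark dye-exchanged arrays of the same samples and no test was made. With 1 sample per strain, differences between cultures cannot be told apart from differences between strains, and dim signal limits APE1 and KEX1 in bdf1Δ versus W303, KEX1 on array 2 of the bdf1Δ+HAL2 pair, and KEX2 on every array but array 1 of that pair.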
